A study of Homo sapiens with 6 samples.

Results

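CDKN1B and CDK6 encode opposed regulators of the G1 phase of the cell cycle, and Argonaute crosslinks in both transcripts were examined. All sites of the deposited crosslink table whose gene name is CDKN1B or CDK6 were taken, which gave 28 of 16230 sites: 6 in CDKN1B and 22 in CDK6. The values come from PAR-CLIP with an anti-Argonaute antibody on HK2, an established and immortalised human kidney proximal tubule line. Cells of every library were wild type and were serum starved for 24 h. Before ultraviolet irradiation at 365 nm they took up 4-thiouridine, given at 100 µM over 20 h. The groups are 2 libraries from cells that received 20 ng/mL of TGF-beta1 over 24 h and 2 libraries from cells labelled as control. The treatment protocol given for the control samples has the same TGF-beta1 step, so the groups rest on the treatment label of each sample. IgG libraries of the series (2) were not used here, and no IgG background was subtracted from the values here.

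CDKN1B, also called p27 or Kip1, binds complexes of cyclins and cyclin-dependent kinases and inhibits them, which holds cells in G1. CDK6 is a kinase that pairs with D-type cyclins and phosphorylates the retinoblastoma protein, which releases E2F transcription factors and lets cells enter S phase. Argonaute proteins carry microRNAs, which pair through their seed, the bases 2 to 8 of the mature microRNA, with sites that lie mostly in 3' UTRs and lower the output of the mRNA. TGF-beta is a known inhibitor of epithelial proliferation, and CDKN1B is a textbook target of miR-221 and miR-222.

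In PAR-CLIP a bound 4-thiouridine is crosslinked to protein and read as a base change, so each site is a single T of the transcript. A library's value at a site is its number of crosslinked reads in RPM, and "scaled RPM" below means RPM after scaling by TMM, a factor that sets the bulk of sites or genes level between libraries. Library depth was 5293207 and 3415699 reads in the TGF-beta1 libraries, against 1714444 and 1926255 in the control libraries. Crosslinked reads at all listed sites were 74969 and 72206, against 36958 and 53835. Of 14 proximal tubule markers only PAX8 had a site in the table, and of 6 epithelial markers only KRT18. None of 6 fibroblast, 4 endothelial and 4 leukocyte markers had one. A marker without a listed site is not shown to be unexpressed, since the table lists Argonaute crosslinks and not mRNA.

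The CDKN1B sites lay on the plus strand of chromosome 12 between 12721116 and 12721269 (hg38), a stretch of 154 nt. The deposited table puts the gene under ENSG00000111276.10, and RefSeq places it at 12717368 to 12722369. F2197, F2198 and F2199, the 3 sites nearest the 5' end, are annotated as joint coding sequence and 3' UTR, and F2200, F2201 and F2202 as 3' UTR. These names are the site labels of the deposited table. The CDK6 sites lay on the minus strand of chromosome 7, over 9713 nt, and all 22 are annotated as 3' UTR. CDK6 is ENSG00000105810.9 in the table and lies at 92604921 to 92836573 in RefSeq.

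The sequences below are a selection of strong sites and of sites with a microRNA match near the crosslink. Each is given as 29 nt of the transcript strand, taken from the deposited windows. The crosslinked T is base 15 of each line. Capitals mark the microRNA match, or the crosslinked T where the authors list none and none is discussed. In CDKN1B they are at chr12:12721163-12721191 for F2199, chr12:12721194-12721222 for F2200, chr12:12721211-12721239 for F2201 and chr12:12721255-12721283 for F2202.
F2199: aaacaacaacacaaTaacactaaaatttt
F2200: gcactcttaaatgaTctgcctctaaaagc
F2201: gcctctaaaagcgttggATGTAGCattat
F2202: cttatttgcttcattgtACTACCTgtgta
The windows of F2200 and F2201 overlap: the crosslink of F2200 is 17 nt upstream of that of F2201, and 20 nt upstream of the start of the match in F2201.

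The CDK6 sequences are at chr7:92614847-92614875 for R7674, chr7:92614816-92614844 for R7673, chr7:92613759-92613787 for R7669, chr7:92608039-92608067 for R7659, chr7:92605989-92606017 for R7657 and chr7:92605239-92605267 for R7656, all on the minus strand.
R7674: agctgctgaccaattgTGCTGCcatttga
R7673: tttctaaccttgaATGCTGCcagtgtgga
R7669: cttgttttgttttaTcaccagcacacaga
R7659: tacccgttgtaccctTACTTGAaagtttc
R7657: cagaatgctctgtttTGGTGCTttgagtt
R7656: actggatgtcttactgGGTGCTAgaatga

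The mature microRNAs whose seeds pair with these capitals follow, from RefSeq (GRCh38.p14), with bases 2 to 8 in capitals. They fall into 5 seed groups, and the members of a group differ only outside the seed.
hsa-miR-221-3p: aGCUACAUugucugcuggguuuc
hsa-miR-222-3p: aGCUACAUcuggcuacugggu
hsa-miR-196a-5p: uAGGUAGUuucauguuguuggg
hsa-miR-196b-5p: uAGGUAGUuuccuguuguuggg
hsa-miR-103a-3p: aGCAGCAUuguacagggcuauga
hsa-miR-107: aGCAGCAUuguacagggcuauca
hsa-miR-26a-5p: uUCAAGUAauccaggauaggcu
hsa-miR-26b-5p: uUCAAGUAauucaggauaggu
hsa-miR-29a-3p: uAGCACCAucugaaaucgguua

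Crosslinks in CDKN1B were dense and strong. The 6 sites held 1546 crosslinked reads over the 4 libraries, 257.7 per site, which was the highest number per site among the 335 genes with at least 6 sites and 100 reads (median 17.4). CDK6 held 648 crosslinked reads at 22 sites, 29.5 per site, which ranked 67th of the same genes. The minimum of 6 sites equals the number in CDKN1B. It leaves out genes with fewer but strong sites, such as SHOC2 with 1238 reads at 4 sites, so the first rank holds only above that minimum. Such sums depend on the amount of each mRNA, which was not analysed here, as well as on Argonaute binding.

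F2200, in the CDKN1B 3' UTR at 12721208, was the strongest of all 28 sites. It held 727 crosslinked reads, the 8th highest of all 16230 sites and the highest of the 5981 sites at which the authors list no match to an expressed seed. It took 47.0% of the crosslinked reads of CDKN1B, where the median share of the leading site over the 335 genes was 34.1%. Its share of CDKN1B reads was 44.0% (95% Wilson interval 38.8 to 49.2%) and 47.0% (42.4 to 51.6%) in the TGF-beta1 libraries, against 47.5% (41.8 to 53.2%) and 49.1% (44.6 to 53.7%) in the control libraries. These intervals cover counting error only, and they overlap between the groups. The mean share differed by -2.82 percentage points, TGF-beta1 minus control, with an exact two-sided permutation p of 0.333; a comparison of 2 libraries with 2 cannot go below 0.33.

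F2201, the CDKN1B site with the match to miR-221 and miR-222, was the most covered of the 361 sites the authors assign to that pair. Its match covers bases 2 to 8 and is followed by an A opposite base 1, and it starts 3 nt downstream of the crosslinked T. The site had 2430 covering reads over the 4 libraries, of which 159 carried the crosslink. By crosslinked reads it ranked 3rd among those 361 sites and 1st among the 68 with a 7-nt match. The 7 letters ATGTAGC occur on the transcript strand in 54 of the 6332 windows of 31 nt around 3' UTR sites, or 0.853%, and in 31 of them they start 0 to 3 nt downstream of the crosslink.

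F2202, 44 nt further downstream in CDKN1B, carries the 7 letters ACTACCT, a match to bases 2 to 8 of miR-196a and miR-196b, also starting 3 nt after the crosslink. With 252 crosslinked and 1090 covering reads it ranked 1st on both measures among the 83 sites the authors assign to miR-196. These letters occur in 26 of the 6332 3' UTR windows (0.411%). The deposited microRNA score, which the authors derived from the microRNA reads, is 24209 for the miR-221 and miR-222 seed and 4990 for the miR-196 seed.

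The other CDKN1B sites have no 7-nt match listed by the authors. F2199 held 303 crosslinked reads, the 4th highest of the 5981 sites without a listed match, and F2197 held 83. F2198 held 22 of 651 covering reads, and the authors list there a 6-nt match, to bases 3 to 8, of miR-21-5p, whose score in the table is 376262.

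The leading CDK6 site, R7677, is also one at which the authors list no match. It lies nearest the 5' end of the 22 sites and held 280 crosslinked reads, the 5th highest of the 5981 sites without a listed match and 53rd of all sites. A match to some mature microRNA is common: of 2370 mature names, at least 1 matched bases 2 to 8 starting 0 to 3 nt downstream in 18 of the 28 CDKN1B and CDK6 windows (64.3%) and in 64.2% of all 3' UTR windows.

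R7677 stood at the head of a group of 4 sites within 105 nt that held 383 crosslinked reads, 59.1% of those of CDK6. R7674, the last of the 4, held 87 reads and has a 6-nt match to bases 2 to 7 of miR-103a-3p that starts 2 nt after the crosslink. R7676 and R7675, between them, had 326 and 363 covering reads but only 8 crosslinked reads each.

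The remaining CDK6 sites were weaker than R7677 and R7674 and spread toward the 3' end. R7669, without a listed match, held 55 reads, and R7664, also without one, held 49. R7659, with a match to bases 2 to 8 of miR-26a and miR-26b followed by an A, held 15. The authors list miR-26 at 3 CDK6 sites, which held 31 reads together, and miR-29a at 2, which held 34. The listed miR-26 match has an offset from the crosslink of -7 nt at R7671 and 14 nt at R7661. The authors class the one at R7661 as neither adjacent to nor near the crosslink. At R7657 the authors list bases 3 to 8 of miR-29a-3p, and its window holds TGGTGCT, the match to bases 2 to 8 of the RefSeq sequence. At R7656, 750 nt downstream, the authors list bases 2 to 8 of miR-29a-3p. Its window holds GGTGCTA, the match to bases 2 to 7 of the RefSeq sequence followed by an A. The listed match types thus differ from those read against RefSeq at both sites. R7673 is listed under miR-181, with bases 3 to 8. Its window also holds ATGCTGC, the match of miR-103a and miR-107 to bases 2 to 8, across the crosslinked T. None of the 28 sites is listed under let-7 or under the miR-17 family that the title of the series names.

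In all, the authors list no match at 14 of the 28 sites, 3 in CDKN1B and 11 in CDK6, where 26.8% of all 3' UTR sites have none. These sites took 70.7% of the crosslinked reads of both genes, where sites without a listed match took 15.8% of the reads of all 3' UTR sites. F2200, F2199 and R7677 held most of these reads. The 28 sites include 3 joint sites, F2197, F2198 and F2199, whereas the 3' UTR shares leave joint sites out. Over all 16230 sites, 36.9% had no listed match, and those took 24.0% of the reads. Listed matches include those at R7660, R7661 and R7666, which the authors class as neither adjacent to nor near the crosslink.

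The share of covering reads that carried the crosslink varied widely among the sites. Over the 2617 3' UTR sites with at least 50 covering reads its median was 19.2%, with quartiles at 8.98 and 40.4%. R7677 stood at 85.6%, above 99.3% of those sites, and R7669 at 84.6%. F2199 stood at 56.6%, F2200 at 36.2% and F2202 at 23.1%. F2201 stood at 6.54%, above 14.3% of them, and F2198 at 3.38%. R7676 and R7675 were lowest, at 2.45 and 2.204%. A read that covers one of several close sites can carry its crosslink at another, so neighbouring shares are not independent.

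**Figure D1:**
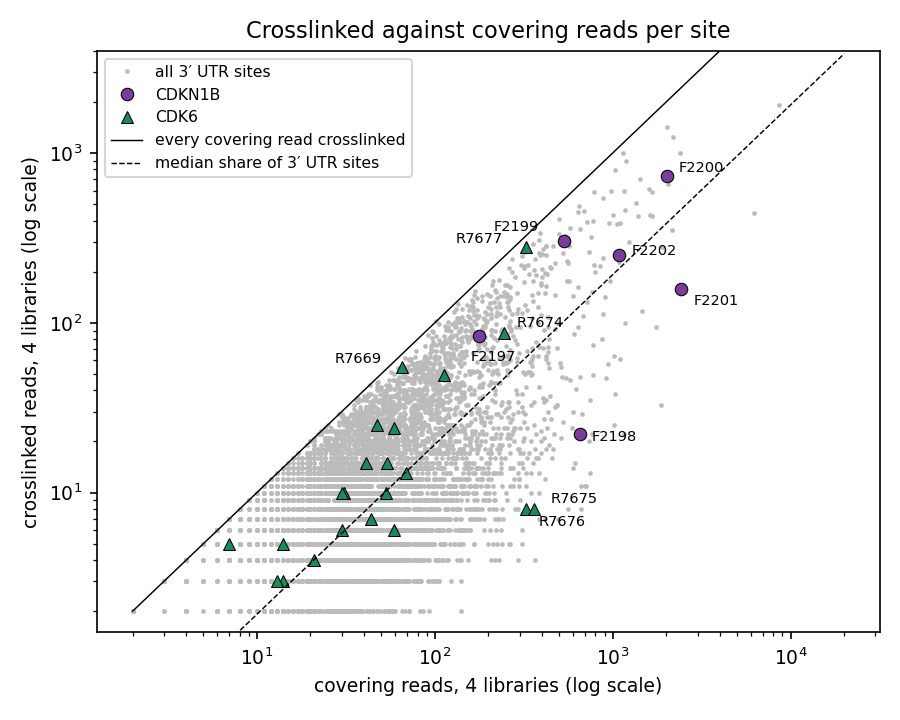
Crosslinked reads (vertical, log scale) against covering reads (horizontal, log scale) per site, summed over the 4 libraries, with all 6332 3' UTR sites in grey, CDKN1B as circles and CDK6 as triangles. The solid line is every covering read crosslinked and the dashed line is the median share of 19.2% at sites with at least 50 covering reads; R7677 and R7669 lie close to the solid line, and F2201, F2198, R7676 and R7675 far below the dashed line.

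The comparison between groups asked whether Argonaute crosslinking of the 2 mRNAs differed after TGF-beta1. CDKN1B summed over its sites stood at 98.7 and 127 scaled RPM in the TGF-beta1 libraries, against 163 and 171 in the control libraries. Both TGF-beta1 libraries lay below both control libraries. The means were 113 ± 20.2 in TGF-beta1 cells and 167 ± 5.54 in control cells (SD, n = 2 each), a ratio of TGF-beta1 to control of 0.676. On the log2(scaled RPM + 1) scale the difference was -0.57 ± 0.20 (SE; 95% interval -1.01 to -0.13). It did not pass the test over all genes, with limma adjusted p = 0.204 and unadjusted p = 0.0164.

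Of 1266 genes tested, 3.08% passed, 1.58% as higher (20 genes) and 1.5% as lower (19), and 23.1% had both TGF-beta1 libraries below both control libraries. Without TMM 6 genes passed as higher and 23 as lower, so the split depends on the scaling. The CDKN1B call depended on the fit. A limma fit blocked on replicate number called it lower, with adjusted p = 0.0299, and called 2.05% of all genes lower. A limma fit restricted to annotated 3' UTR sites gave a log2 difference of -0.47 with adjusted p = 0.0422, and called 4.57% of its genes lower. When joint sites were added, which keeps all 6 CDKN1B sites, CDKN1B was not called (limma adjusted p = 0.0541). That fit was chosen after the data were seen. An edgeR fit with the block, also chosen after the data were seen, called CDKN1B lower (adjusted p = 0.00164) together with 3.95% of all genes. Lower binding and less CDKN1B mRNA cannot be told apart in these values, nor can less RNA per cell and fewer cells with the RNA.

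CDK6 stood at 44.5 and 59.8 scaled RPM in the TGF-beta1 libraries, against 48.7 and 72.4 in the control libraries, and the groups overlap. The means were 52.2 ± 10.8 in TGF-beta1 cells and 60.5 ± 16.8 in control cells (SD, n = 2 each). The log2 difference was -0.20 ± 0.26 (SE; 95% interval -0.77 to 0.37), with limma adjusted p = 0.790. The interval spans 0, and the sign turned when control replicate 2 was left out (0.088) and when TGF-beta1 replicate 1 was left out (0.010). The difference between CDKN1B and CDK6 in their change was not tested.

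**Figure D2:**
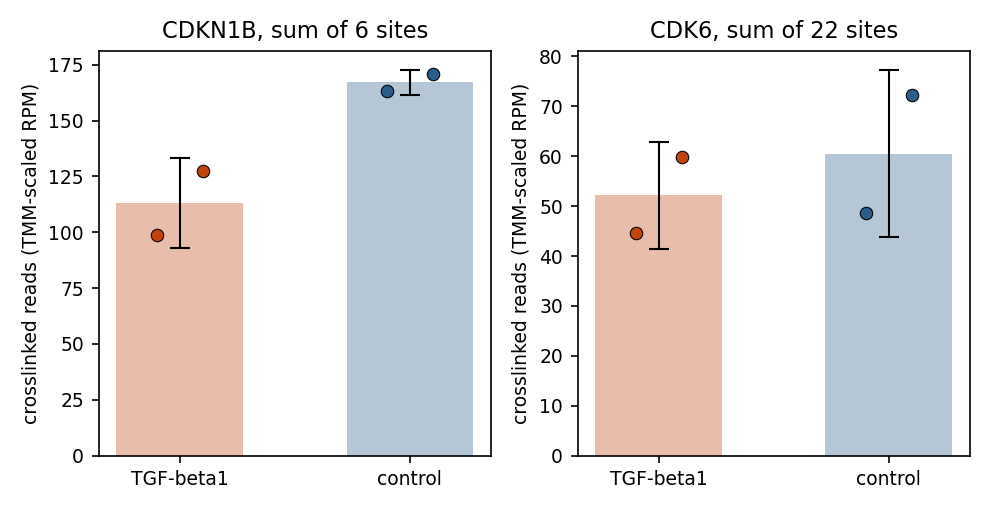
Crosslinked reads summed over the sites of CDKN1B (left panel) and CDK6 (right panel), in TMM-scaled RPM; each point is a library, bars are group means and error bars are SD (n = 2 each). Both TGF-beta1 libraries lie below both control libraries for CDKN1B, at 98.7 and 127 against 163 and 171, and the groups overlap for CDK6.

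Site by site, 8 of the 28 sites held enough reads to be tested, 5 in CDKN1B and 3 in CDK6, and none passed. Of all 1059 sites tested 7.08% passed, 3.68% as higher (39 sites) and 3.4% as lower (36). Without TMM 4 sites passed as higher and 24 as lower. In 4 of the 8 both TGF-beta1 libraries lay below both control libraries and in none above, where 24.5% and 23.9% of all tested sites did. All 4 are CDKN1B sites that share a transcript, so they are not independent.

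F2200 stood at 47.1 and 60.0 scaled RPM in the TGF-beta1 libraries, against 77.4 and 77.1 in the control libraries. Its log2 difference was -0.53 ± 0.21 (SE), with limma adjusted p = 0.134. The controls were nearly equal and both TGF-beta1 libraries lay below them. DESeq2 on the recovered reads gave F2200 an adjusted p of 0.0492, the only setting of 17 under which a CDKN1B or CDK6 site passed, among the 6 to 28 of these sites that each setting tested; it called 2.27% of all sites lower.

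F2202 stood at 16.02 and 20.9 scaled RPM in the TGF-beta1 libraries, against 27.6 and 26.5 in the control libraries (log2 difference -0.54 ± 0.27 SE, limma adjusted p = 0.271). F2199 stood at 21.6 and 26.002 against 34.3 and 27.5 (limma adjusted p = 0.479). The groups do not overlap at F2202 and F2199. F2197 stood at 7.70 and 3.71 in the TGF-beta1 libraries, against 8.29 and 10.3 in the control libraries, with an adjusted p of 0.398 by limma. F2198 was not tested: it stood at 1.85 and 2.86 in the TGF-beta1 libraries, against 1.66 and 1.03 in the control libraries, the only CDKN1B site with both TGF-beta1 libraries above.

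F2201, the miR-221 and miR-222 site, had the smallest difference of the tested CDKN1B sites on crosslinked reads. On covering reads its difference was also the smallest, but close to those of the other tested CDKN1B sites. By crosslinked reads F2201 stood at 12.9 and 14.3 scaled RPM in the TGF-beta1 libraries, against 13.8 and 14.5 in the control libraries. The log2 difference was -0.05 ± 0.31 (SE; 95% interval -0.69 to 0.59, limma adjusted p = 0.947), an interval that also holds the difference of F2200. On covering reads at all sites the log2 difference was -0.68 at F2201, -0.72 at F2200 and -0.69 at F2202, and none passed. Without TMM it was -0.67 at F2201 and -1.19 at F2200 on crosslinked reads, where the median of all tested sites was -0.51. The share of CDKN1B reads at F2201 was 12.1% (95% Wilson interval 9.05 to 15.9%) and 11.2% (8.59 to 14.4%) in the TGF-beta1 libraries. In the control libraries it was 8.47% (5.81 to 12.2%) and 9.21% (6.89 to 12.2%). The intervals overlap between the groups. The shares themselves do not, as at F2200, and the exact two-sided permutation p was 0.333. Whether a site changed apart from the other tested sites of its gene was tested with limma over 512 sites. None passed (0%), 27 had an unadjusted p under 0.05, and the lowest adjusted p of a CDKN1B or CDK6 site was 0.864, at F2201.

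The crosslinked share of covering reads at F2200 was 34.9 and 34.6% in the TGF-beta1 libraries, against 37.9 and 37.8% in the control libraries. At F2201 it was 7.73 and 6.78% against 5.73 and 5.89%. The groups do not overlap at either site, with TGF-beta1 lower at F2200 and higher at F2201. The values at F2201 rest on 42 and 50 crosslinked reads in the TGF-beta1 libraries, against 25 and 42 in the control libraries. How many of all sites separate in this way was not counted, and these differences were not tested. Pooled over the sites with a crosslinked read in the given library, the share was 18.0 and 21.2% in the TGF-beta1 libraries, against 25.8 and 28.3% in the control libraries. Those sites numbered 14531 and 13865, against 10813 and 11365, so the pooled shares rest on different sets of sites and on unequal depth. Their part in the values of F2200 and F2201 was not tested.

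In CDK6, R7677 stood at 20.0 and 30.3 scaled RPM in the TGF-beta1 libraries, against 16.6 and 27.2 in the control libraries. The groups overlap (log2 difference 0.20 ± 0.29 SE, limma adjusted p = 0.770). R7677 took 41.4 and 50.5% of CDK6 reads in the TGF-beta1 libraries, against 34.1 and 40.9% in the control libraries. The exact two-sided permutation p was 0.333. R7674 stood at 5.24 and 8.57 scaled RPM against 6.08 and 9.98 (limma adjusted p = 0.851), and R7669 at 3.70 and 5.14 against 7.74 and 3.79 (limma adjusted p = 0.816).

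The 19 CDK6 sites that were not tested held 3 to 49 crosslinked reads each and 34.9% of the reads of the gene. In 5 of them both TGF-beta1 libraries lay below both control libraries, in 4 above, and in 10 the groups overlap. Of the 5570 untested 3' UTR sites of all genes, 15.9% lay below and 21.9% above in the same way. R7664 stood at 4.62 and 2.86 scaled RPM in the TGF-beta1 libraries, against 2.76 and 6.54 in the control libraries. R7662, with a 6-nt match of miR-181a-2-3p, stood at 1.85 and 1.43 against 2.21 and 3.44.

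The sites of miR-29 and miR-26 did not lie one way. R7656 stood at 1.23 and 2.00 scaled RPM in the TGF-beta1 libraries, against 0.553 and 4.13 in the control libraries, and R7657 at 0.616 and 0 against 1.11 and 2.07. R7659, the 7-nt miR-26 site, stood at 1.85 and 2.00 in the TGF-beta1 libraries, from 6 and 7 reads, against 0.553 and 0.344 in the control libraries, from 1 read each. The 6-nt miR-26 sites R7671 and R7661 stood at 0 and 0.571 each in the TGF-beta1 libraries, against 2.21 and 1.38 for R7671 and 0.553 and 1.03 for R7661 in the control libraries. Each of these values rests on 0 to 12 reads in a library.

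R7673, listed under miR-181, stood at 2.16 and 1.14 scaled RPM in the TGF-beta1 libraries, against 0.553 and 1.03 in the control libraries. R7665, with a 6-nt match of miR-200a-3p, stood at 1.85 and 0 against 0.553 and 0. R7666, with a 6-nt match of miR-16-2-3p, stood at 0 and 0.286 in the TGF-beta1 libraries, against 1.11 and 0.689 in the control libraries. R7660, with a 7-nt match of miR-191-5p, stood at 0.308 and 0.286 against 0.553 and 1.03. The listed match has an offset from the crosslink of -9 nt at R7660 and -15 nt at R7666. The authors class both as neither adjacent to nor near the crosslink. The other 8 untested CDK6 sites have no listed match and held 3 to 13 reads each, with no library above 1.72 scaled RPM.

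**Figure D3:**
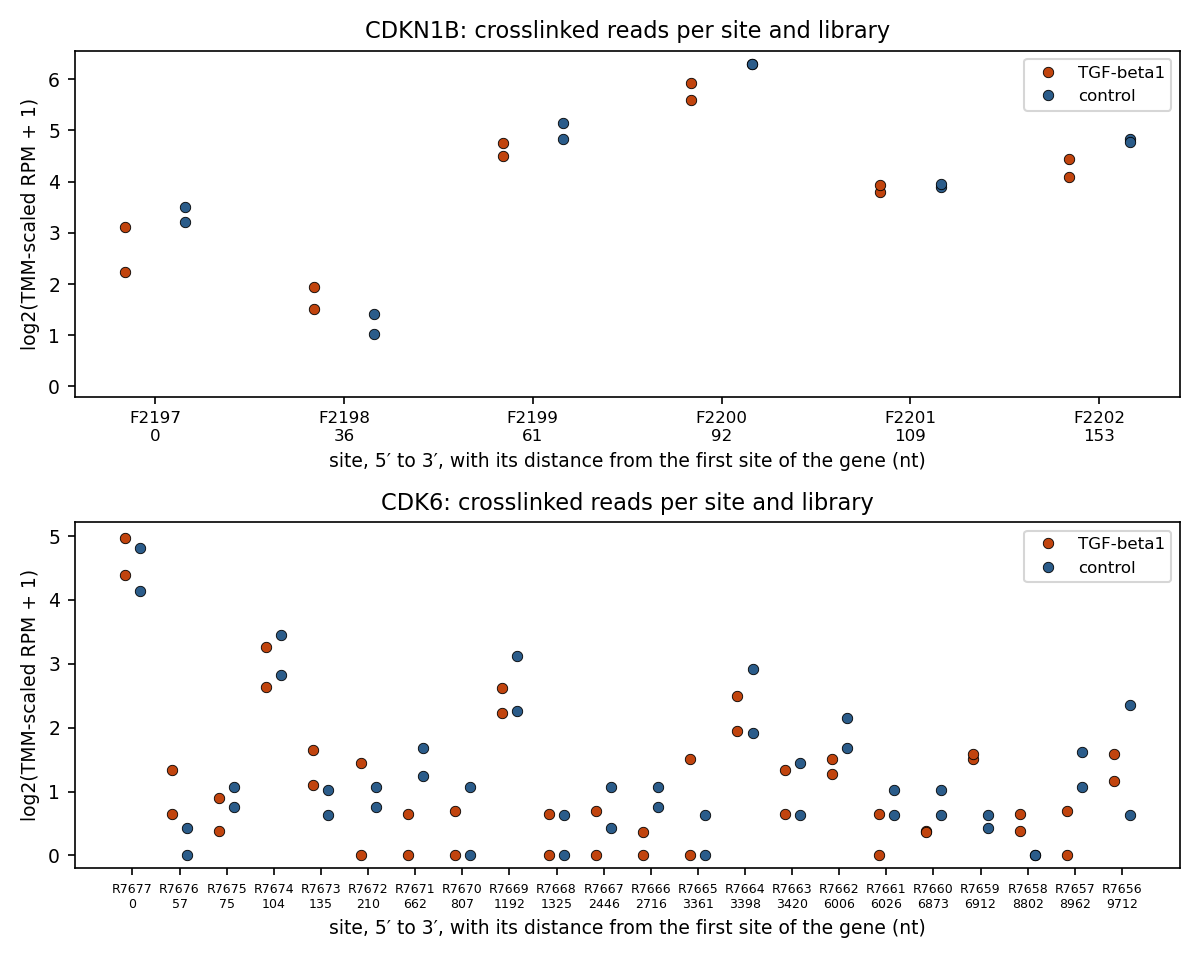
Crosslinked reads at each CDKN1B site (top) and CDK6 site (bottom) as log2(TMM-scaled RPM + 1), with each library as a point, TGF-beta1 left of control, and sites in order along the transcript with their distance from the first site in nt. F2200 and R7677 are the highest sites of their genes, the TGF-beta1 points lie below the control points at F2197, F2199, F2200 and F2202, and every CDK6 site downstream of R7669 lies below 3.

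**Figure D4:**
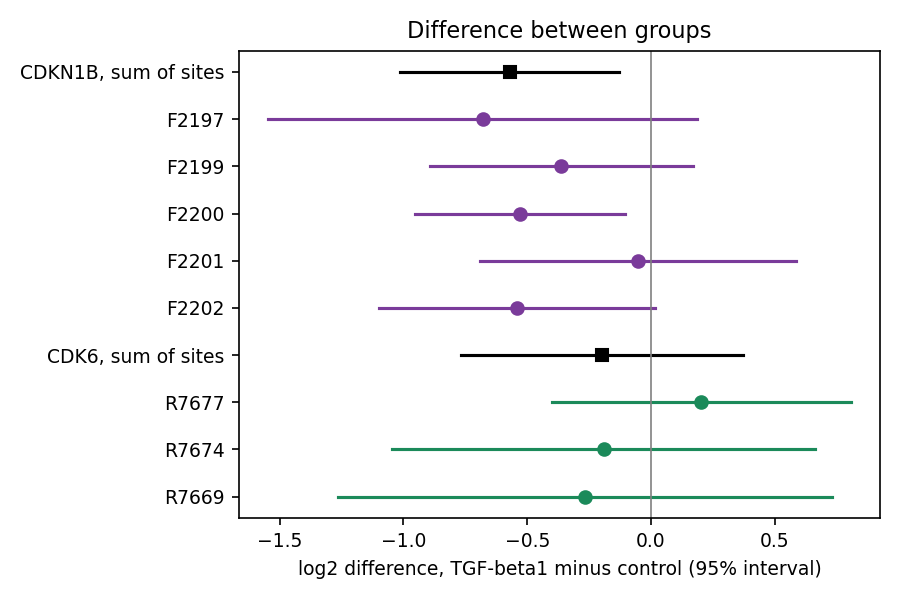
Log2 difference, TGF-beta1 minus control, with 95% intervals from limma, for the summed sites of CDKN1B and CDK6 (squares) and the 8 tested sites (circles). The intervals of CDKN1B and F2200 lie below 0 before adjustment over all genes or sites, and the other 8 span 0.

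Other genes of the cell cycle were counted from a list of 35. Of these 20 had a site in the table and 11 were tested, CDKN1B and CDK6 included. None passed in either direction, where 3.08% of all tested genes did. Without adjustment CDKN1B alone was under 0.05. The median log2 difference of the 11 was -0.05, against 0.02 over all tested genes, and 7 of the 11 were below 0. In 3 of the 11 both TGF-beta1 libraries lay below both controls and in 1 above, where 23.1% and 20.5% of all tested genes did.

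SKP2, the subunit of the ubiquitin ligase that marks CDKN1B protein for degradation, stood at 7.09 and 5.41 scaled RPM in the TGF-beta1 libraries, against 9.40 and 9.37 in the control libraries. E2F6, a repressor of the E2F family, stood at 30.4 and 30.5 against 35.4 and 35.2. CCNB1, the mitotic cyclin B1, stood at 26.1 and 31.03 in the TGF-beta1 libraries, against 16.04 and 25.9 in the control libraries. In SKP2 and E2F6 both TGF-beta1 libraries were lower, in CCNB1 higher, and none passed.

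E2F3, an activator of S phase genes, stood at 27.8 and 37.6 scaled RPM in the TGF-beta1 libraries, against 27.1 and 40.9 in the control libraries. E2F7, a repressor, stood at 13.9 and 16.5 against 9.40 and 16.1. CCNE2, a cyclin E that activates CDK2, stood at 11.3 and 10.5 against 4.42 and 16.5. These groups overlap.

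CCNA2, the cyclin of S phase and G2, stood at 10.5 and 11.7 in the TGF-beta1 libraries, against 10.5 and 12.7 in the control libraries. CDK1, the mitotic kinase, stood at 10.5 and 7.40 against 11.6 and 5.62, and WEE1, the kinase that inhibits CDK1, at 47.7 and 54.7 against 42.0 and 66.7. The limma adjusted p of the 9 genes other than CDKN1B and CDK6 lay between 0.542 and 0.968. The 9 untested genes with a site, CDK2 and CDK4 among them, held 3 to 29 reads each.

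By distance of log2(scaled RPM + 1) over the 4 libraries, the tested genes nearest to CDKN1B were IRS2 (Euclidean distance 0.552), FOSL2 (0.580) and SHOC2 (0.716). IRS2, an adaptor of the insulin receptor, stood at 131 and 149 scaled RPM in the TGF-beta1 libraries, against 133 and 177 in the control libraries, and the groups overlap (limma adjusted p = 0.826). FOSL2, a subunit of the transcription factor AP-1, stood at 95.04 and 92.8 scaled RPM in the TGF-beta1 libraries, against 128 and 161 in the control libraries, with a limma adjusted p of 0.172. SHOC2, a scaffold of RAS signalling, stood at 88.8 and 109 in the TGF-beta1 libraries, against 117 and 124 in the control libraries (limma adjusted p = 0.573). In FOSL2 and SHOC2 the groups do not overlap. Nearest to CDK6 were WEE1 (0.285), SERINC1 (0.468) and TUBB (0.540). SERINC1 stood at 55.9 and 68.04 scaled RPM in the TGF-beta1 libraries, against 56.96 and 63.7 in the control libraries. TUBB, a beta tubulin, stood at 63.5 and 59.2 against 51.99 and 64.1. These groups overlap. The measure reflects the level as well as the pattern.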

How the data were processed

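PAR-CLIP libraries were made from HK2 cells, with nuclease digestion before precipitation with anti-Argonaute or IgG, per the labels' protocols. Tools named in the submitters' processing notes are bcl2fastq 2.20.0.422, STAR 2.7.1a and bedtools, with the hg38 build. The annotation is GENCODE 27, per the file headers. The caller of crosslinks is not given in the sources used here. The deposited table gives covering and crosslinked reads per site and library in RPM, scaled by the authors to the total reads, per the file headers, and a deposited microRNA score per seed. A second deposited list repeats the 16230 positions with a score of 1. Coverage was 0 wherever a library had no crosslinked read. Another 4 columns of RNA-seq values were not used.

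All RPM values were whole multiples of 1 read (100% within 0.1 reads), so reads were recovered. Reads are not independent molecules, since the labels mention no molecular identifiers. Crosslinked RPM was scaled by TMM and log2(value + 1) tested with limma 3.58.1 (variance trend, two-sided, Benjamini-Hochberg adjusted p under 0.05), over 1266 genes (sites summed by gene name) and 1059 sites kept by filterByExpr (minimum count 10); the fold of low sites is understated. Each site against the other tested sites of its gene was tested with limma's diffSplice. Scaling over genes and over sites gives slightly different factors. Alternatives used edgeR 4.0.16 and DESeq2 1.42.0 (R 4.3.3), and figures Python 3.11.15. The main limma fit and diffSplice were run on simulated data, with changes larger than that of CDKN1B. The edgeR, DESeq2 and replicate-block fits were not. Seed matches were read on the transcript strand only, in the 31 nt window of the table (15 nt either side of the crosslinked T). Of 30 listed microRNAs 29 were in the RefSeq table.

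Control and TGF-beta1 libraries share replicate numbers. Same-numbered libraries deviated from their group means with a correlation of 0.131 (genes) and 0.117 (sites); with 2 pairs this does not establish pairing, and no pairing was assumed. Whether replicates are separate cultures is not stated in the labels, and the spread behind each p-value may be technical. CDKN1B, CDK6, the gene and microRNA lists and the variance trend were chosen with earlier results of these data known. CDKN1B and CDK6 sites are given with values where they held at least 20 crosslinked reads or had a listed match, genes of the cell cycle list where tested, and the 3 nearest genes by distance. The sequence at 1 CDK6 site is not reported here.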

Additional observations from a re-analysis of the deposited data

How the results depend on the processing

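The CDKN1B sum was lower in TGF-beta1 cells under all 17 alternatives (log2 difference -1.11 to -0.39), and with single libraries left out lay between -0.75 and -0.39. It passed with the replicate block (-0.57, adjusted p = 0.0299), when sites were restricted to the 3' UTR (-0.47), and with edgeR and the replicate block together (-0.57), the last chosen after the data were seen. Adjusted p was 0.439 by DESeq2 and 0.483 without the variance trend. Without TMM the median of all genes moved to -0.45, and CDKN1B stood at -1.11 and CDK6 at -0.73. CDK6 lay between -0.47 and 0.088 with single libraries left out, turning sign when control replicate 2 (0.088) or TGF-beta1 replicate 1 (0.010) was left out. The shares of F2200 and R7677 in their genes kept the sign of their difference (-4.32 to -1.31 and 3.89 to 12.96 percentage points with libraries left out).

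The number of genes that passed (39) was 4 without the filter, 3 without the trend, 25 on coverage at all sites, 84 on coverage where all 4 libraries had a crosslink, 70 with 3' UTR sites only, 94 with edgeR and the replicate block, 57 with the limma replicate block, and 0 to 17 with libraries left out. The number of sites (75) was 28 without TMM (4 higher and 24 lower), 0 without the filter, 25 without the trend, 47 by DESeq2, 117 with the replicate block, 0 on coverage at all sites, 202 on coverage where all 4 libraries had a crosslink, and 3 to 116 with libraries left out. Without a filter 444 genes and 2319 sites had an unadjusted p under 0.05. Of the 8 tested CDKN1B and CDK6 sites 1, F2200, passed by DESeq2 (-0.53) and 0 under the other settings, which tested 6 to 28 of the 28 sites. Site shifts within genes numbered 1 without TMM, 4 without the filter and 0 to 1 with libraries left out, none among the 8 to 28 CDKN1B and CDK6 sites tested.

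Small differences changed sign: F2201 without the filter (0.037), on 3' UTR sites (0.015), with joint sites added (0.012) and without TGF-beta1 replicate 1 (0.014); R7677 without TMM (-0.43), on coverage (-0.12 and -0.063), and when control replicate 1 (-0.14) or TGF-beta1 replicate 2 (-0.067) was left out; R7674 when control replicate 2 (0.12) or TGF-beta1 replicate 1 (0.12) was left out; R7669 without control replicate 1 (0.17). With libraries left out in turn F2201 spanned -0.10 to 0.014, R7677 -0.14 to 0.54, R7674 -0.51 to 0.12 and R7669 -0.69 to 0.17. F2201 stood at -0.67 without TMM, where the median of all tested sites was -0.51. On coverage it stood at -0.68 and -0.62, near F2200 (-0.72 and -0.66). The cause was not tested. The 19 CDK6 sites with 3 to 49 reads were below the filter, so the reported test does not cover them.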
